A study of Homo sapiens with 6 samples.

Results

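The ERBB family of receptors and the ligands that bind them were examined in DU-145-DR/tet-MUC1shRNA cells by RNA-Seq. The genes were taken by name: the 4 receptors EGFR, ERBB2, ERBB3 and ERBB4, and the 6 ligands AREG, EREG, HBEGF, TGFA, BTC and NRG1. These are 10 of the 28008 genes in the deposited count table, and 9 of them passed the filter on low counts, which left 14292 genes to test. DU-145-DR is a docetaxel-resistant (DTX-resistant) derivative of DU-145, a human prostate cancer cell line, and here it carried a doxycycline-inducible (DOX-inducible) hairpin against MUC1. The 3 DOX-negative cultures received 0.1% DMSO as vehicle, and the 3 DOX-positive cultures received 500 ng/ml DOX, both for 7 days. All 6 libraries share the resistant background. In the labels the hairpin appears only under the DOX-positive cultures and DTX resistance only under the DOX-negative cultures. That both groups carried the hairpin was taken from the study. Each comparison measures MUC1-C silencing together with exposure to DOX and any effect of the hairpin on other transcripts. These cannot be told apart because no DOX-treated culture with a control hairpin or another MUC1 hairpin was analysed here.

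Signalling by this family starts when a ligand, made as a transmembrane precursor and cut from the cell surface by ADAM proteases, binds a receptor and lets it dimerize. AREG, TGFA and EGF bind EGFR, HBEGF, EREG and BTC bind EGFR and ERBB4, and NRG1 binds ERBB3 and ERBB4. ERBB2 has no known soluble ligand and acts as the partner of the others, while ERBB3 has a weak kinase and passes the signal on mainly through PI3K. The dimers feed the RAS/ERK, PI3K/AKT and STAT3 pathways, which drive growth and survival in many carcinomas.

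Library totals ranged from 15092691 to 23243713 counts, and the detection floor of 3 counts lay between 0.129 and 0.199 CPM (counts scaled to the size of the library, with TMM factors for expression levels). MUC1 fell from 21.9 ± 2.58 CPM (SD, n = 3) in DOX-negative cells to 3.86 ± 0.584 CPM (n = 3) in DOX-positive cells, so the libraries matched their labels. KLK3, FOLH1, CHGA and INSM1 had 0 counts in all 6 libraries, and the epithelial markers KRT8, KRT18, KRT19, EPCAM, CDH1 and CLDN4 were all expressed. The summed level of these 6 epithelial markers lay between 766 and 847 CPM in DOX-negative libraries and between 1455 and 1526 CPM in DOX-positive libraries, and 5 of the 6 were called higher. Their part in the changes described here was not tested. The leukocyte list also summed higher, at 158 to 179 CPM against 91.7 to 107 CPM. CD68 held nearly all of that sum, PTPRC had at most 3 counts in a library, and CD3E was at 0.

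A gene was called when edgeR's quasi-likelihood test gave a p under 0.05 after Benjamini-Hochberg adjustment across the genes tested. On that basis 5 of the 9 tested members were called, and the background was 26.7% of all genes tested. Higher in DOX-positive cells were 4 members (AREG, HBEGF, EREG and EGFR) and lower was 1 (ERBB2), against backgrounds of 13.0% called higher and 13.7% called lower. The same 5 members were those whose DOX-positive and DOX-negative libraries did not overlap in CPM, which held for 39.8% of all genes tested. The median log2 fold change was 0.19 over the 9 tested members, 0.35 over the 6 ligands and -0.22 over the 3 tested receptors, beside -0.0034 over all genes.

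**Figure D1:**
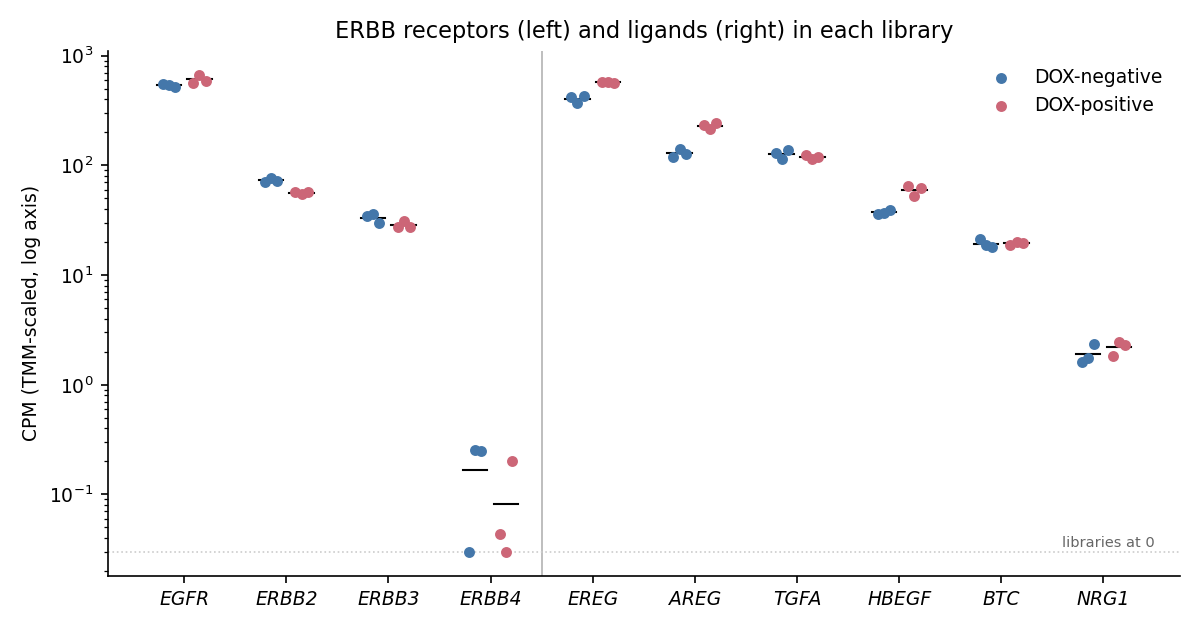
CPM of each receptor (left of the line) and ligand (right) on a log axis. Points are single libraries, blue for DOX-negative and red for DOX-positive (n = 3 each), bars are means, and libraries at 0 sit on the dotted line. AREG, EREG and HBEGF lie higher and ERBB2 lies lower in all 3 DOX-positive libraries, and ERBB4 lies at the floor in both groups.

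The sequence upstream of the 3 ligand genes that rose is shown so that the elements of each can be read from the letters. Whether any element took part in the rises was not tested. The sequences come from RefSeq promoters on GRCh38.p14, in which 8 of the 10 members had an entry. They are given 5′ to 3′ on the strand of the gene, from 210 to 20 bases before the transcript start: chr4:74444926-74445116 on the plus strand for AREG, chr4:74364935-74365125 on the plus strand for EREG and chr5:140346623-140346813 on the minus strand for HBEGF. Capitals mark matches to a CRE (TGACGTCA), a TATA box (TATAAA) or a GC box (GGGCGG), searched on both strands.
AREG: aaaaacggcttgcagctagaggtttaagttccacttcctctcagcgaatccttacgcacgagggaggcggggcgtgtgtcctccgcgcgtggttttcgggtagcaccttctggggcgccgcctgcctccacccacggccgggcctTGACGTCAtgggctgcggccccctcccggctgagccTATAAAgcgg
EREG: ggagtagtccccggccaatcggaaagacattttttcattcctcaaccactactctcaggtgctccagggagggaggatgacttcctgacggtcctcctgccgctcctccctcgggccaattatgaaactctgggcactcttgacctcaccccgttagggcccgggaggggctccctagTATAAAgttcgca
HBEGF: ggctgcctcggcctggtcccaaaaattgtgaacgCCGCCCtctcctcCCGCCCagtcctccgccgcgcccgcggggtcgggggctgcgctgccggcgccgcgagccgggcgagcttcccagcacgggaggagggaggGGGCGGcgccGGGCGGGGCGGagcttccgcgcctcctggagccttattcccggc

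The AREG promoter holds a CRE, the palindrome bound by CREB and ATF proteins, with its first base 65 bases before the start, and a TATA box 29 bases before it. A CRE occurs in 1.85% of the 35116 RefSeq promoters of the same length (250 bases before to 50 after the start), and a TATA box in 11.5%. The EREG promoter holds a TATA box 32 bases before the start and no CRE. HBEGF has neither. It has 5 GC boxes, the element bound by SP1, of which the last 2 share a base. A GC box occurs in 45.0% of all promoters, and among the members also in AREG (1, starting 9 bases before the start and so outside the stretch shown), the first promoters of TGFA (4) and EGFR (3), BTC (1) and ERBB4 (1). No CRE was found in the promoters of EGFR, ERBB2, ERBB4, TGFA or BTC. Among these genes a TATA box was found only in the second RefSeq promoter of EGFR, which held 2. A match to AP-1 (TGANTCA, found in 7.71% of promoters) occurred in the ERBB2 promoter, 222 bases before the start, and 2 occurred in the second RefSeq promoter of EGFR. An E-box (CACGTG, found in 7.26%) occurred in none of the 10 promoters of the 8 members. A match describes letters and not binding, which was not measured here.

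AREG (amphiregulin, chr4:74445136-74455005) showed the largest change of the 9 tested members. Its level was 120, 141 and 126 CPM in DOX-negative replicates 1 to 3, and 231, 216 and 245 CPM in DOX-positive replicates 1 to 3. Every DOX-positive library thus lay above every DOX-negative library. The log2 fold change was 0.84 (SE 0.071, 95% interval 0.69 to 0.99, adjusted p = 1.38e-08, edgeR), a 1.79-fold rise. A change in the number of cells expressing a gene and a change in RNA per cell cannot be told apart in bulk libraries.

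HBEGF (heparin-binding EGF-like growth factor, chr5:140332843-140346603), which also serves as the receptor for diphtheria toxin in its uncut form, rose 1.61-fold. Its level was 36.3, 36.4 and 39.5 CPM in DOX-negative cells and 65.0, 52.6 and 62.7 CPM in DOX-positive cells. The groups did not overlap, and replicate 2 was the lowest of the DOX-positive libraries. The log2 fold change was 0.68 (SE 0.088, 95% interval 0.50 to 0.87, adjusted p = 4.99e-06, edgeR).

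EREG (epiregulin, chr4:74365145-74388749) rose 1.42-fold from a higher base. It stood at 416, 370 and 425 CPM in DOX-negative cells and at 579, 578 and 563 CPM in DOX-positive cells. The DOX-positive libraries lay close together and above all 3 DOX-negative libraries. The log2 fold change was 0.51 (SE 0.064, 95% interval 0.37 to 0.64, adjusted p = 3.86e-06, edgeR). AREG, EREG and HBEGF kept their direction in all 16 alternatives and were called in 14 of them, and both exceptions used the TPM values as deposited.

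The other 3 ligands did not pass the test. TGFA (transforming growth factor alpha, chr2:70447284-70553826) measured 129, 115 and 137 CPM in DOX-negative cells and 123, 113 and 119 CPM in DOX-positive cells. The groups overlapped, with a log2 fold change of -0.097 (95% interval -0.25 to 0.052, adjusted p = 0.346, edgeR). BTC (betacellulin, chr4:74744759-74794523) measured 21.4, 18.8 and 17.9 CPM and 18.7, 20.1 and 19.6 CPM. Its log2 fold change was 0.0070 (95% interval -0.21 to 0.23, adjusted p = 0.970, edgeR), an interval that leaves out changes of the size fitted for AREG, HBEGF or EREG.

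NRG1 (neuregulin 1, on chromosome 8) was near the lower end of what could be tested, with 29, 34 and 47 counts in DOX-negative libraries and 42, 47 and 34 counts in DOX-positive libraries. The groups overlapped at this depth, and the log2 fold change was 0.20 (95% interval -0.37 to 0.77, adjusted p = 0.646, edgeR). The interval spans changes as large as that of HBEGF, so a change of that size is not excluded for NRG1.

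**Figure D2:**
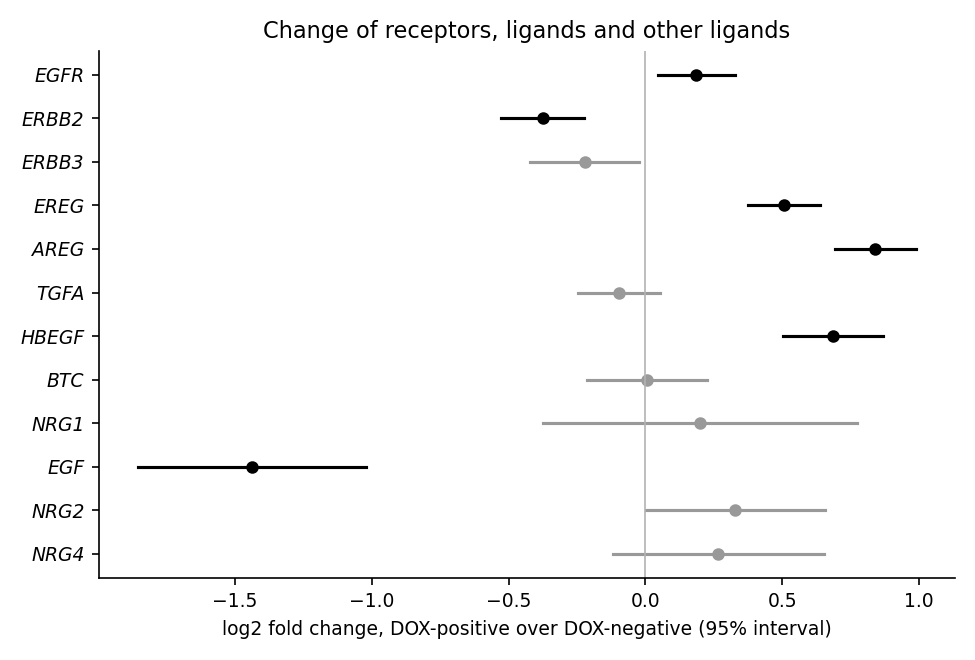
Log2 fold change of DOX-positive over DOX-negative cells for the 9 tested members and for the ligands EGF, NRG2 and NRG4. Points are estimates from edgeR, lines are 95% intervals (n = 3 per group), and black marks an adjusted p under 0.05. AREG (0.84), HBEGF (0.68) and EREG (0.51) lie to the right, and ERBB2 (-0.38) and EGF (-1.44) to the left.

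Among the receptors, ERBB2 (HER2, chr17:39688094-39728658) fell. Its level was 70.4, 77.0 and 71.8 CPM in DOX-negative cells and 57.1, 54.6 and 57.3 CPM in DOX-positive cells. No DOX-positive library reached the lowest DOX-negative library. The log2 fold change was -0.38 (SE 0.074, 95% interval -0.53 to -0.22, adjusted p = 5.74e-04, edgeR), which left 77.1% of the DOX-negative level. ERBB2 shares 194 exon bases with PGAP3 on the opposite strand in GENCODE 29. Whether the counting used strand is not given in the sources used here, so reads from the shared bases could belong to either gene.

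EGFR (chr7:55019017-55211628), the receptor of all these ligands but NRG1, was the most abundant receptor transcript. It measured 555, 543 and 513 CPM in DOX-negative cells and 567, 672 and 593 CPM in DOX-positive cells. The groups did not overlap, but the lowest DOX-positive library (567 CPM) lay close to the highest DOX-negative library (555 CPM). The log2 fold change was 0.19 (SE 0.068, 95% interval 0.045 to 0.33, adjusted p = 0.0469, edgeR), close to the threshold. The call was lost when DOX-positive replicate 2 was left out (log2 fold change 0.11, adjusted p = 0.248) and when DOX-positive replicate 3 (0.0714) or DOX-negative replicate 1 (0.0771), 2 (0.0562) or 3 (0.139) was left out, and over the 16 alternatives the adjusted p ranged from 0.0217 to 0.608. The deposited TPM values gave EGFR a log2 fold change of -0.21. The antisense gene EGFR-AS1 shares 186 exon bases with EGFR and had 0, 3 and 0 counts in DOX-negative libraries and 2, 0 and 0 in DOX-positive libraries.

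ERBB3 (HER3, chr12:56080108-56103505) measured 34.3, 36.2 and 29.9 CPM in DOX-negative cells and 27.2, 31.1 and 27.7 CPM in DOX-positive cells. DOX-negative replicate 3 lay within the range of the DOX-positive libraries. The log2 fold change of -0.22 (SE 0.096, 95% interval -0.42 to -0.023) had an adjusted p of 0.0918 (edgeR). ERBB3 was called lower when DOX-negative replicate 3 (-0.30, adjusted p = 0.0403) or DOX-positive replicate 2 (-0.29, adjusted p = 0.0374) was left out.

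ERBB4 (chr2:211375717-212538802), the receptor for neuregulins and for HBEGF, EREG and BTC, was near the detection floor and was not tested. Its counts were 0, 5 and 5 in DOX-negative libraries and 1, 0 and 3 in DOX-positive libraries. No fold change is given because 2 libraries were at 0 and the highest value was 5 counts.

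To compare genes with each other, TPM values were used, which are corrected for transcript length, rescaled after removal of 5 short noncoding RNAs that held between 34.4% and 64.4% of the deposited TPM of a library. On this scale the order of the mean level over the 6 libraries was AREG, EREG, EGFR, TGFA, HBEGF, ERBB2, BTC, ERBB3, NRG1 and ERBB4. AREG averaged 335 ± 34.5 TPM (SD, n = 3) in DOX-negative and 589 ± 37.1 TPM (n = 3) in DOX-positive cells. EREG averaged 239 ± 13.3 and 334 ± 4.77 TPM, and EGFR averaged 181 ± 11.4 and 202 ± 20.2 TPM. Each gene in this order exceeded the next in all 6 libraries, with the exception of TGFA and HBEGF. TGFA exceeded HBEGF in all 3 DOX-negative libraries, at 72.8 ± 4.71 against 46.4 ± 1.09 TPM, and HBEGF exceeded TGFA in all 3 DOX-positive libraries, at 73.3 ± 7.48 against 66.9 ± 2.23 TPM. The ratio of HBEGF to TGFA rose from between 0.609 and 0.685 to between 1.01 and 1.14. Between other neighbours the smallest ratio in any library was 1.19, for HBEGF over ERBB2. ERBB3 averaged 14.6 ± 1.78 and 12.3 ± 1.04 TPM, NRG1 0.462 ± 0.0847 and 0.528 ± 0.0844 TPM, and ERBB4 0.0371 ± 0.0322 and 0.0178 ± 0.0233 TPM.

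The makeup of the ligand pool shifted toward AREG. AREG held 44.4%, 51.2% and 45.0% of the summed TPM of the 6 ligands in DOX-negative libraries and 53.9%, 53.2% and 55.9% in DOX-positive libraries. TGFA moved the other way, from 10.2 ± 0.880% to 6.18 ± 0.151% (n = 3 each). BTC moved from 2.77 ± 0.314% to 1.80 ± 0.119%, and these 3 shares did not overlap between the groups. The shares of EREG, HBEGF and NRG1 overlapped. The 6 ligands summed to 713 ± 16.3 TPM in DOX-negative and 1083 ± 40.0 TPM in DOX-positive cells, and the 4 receptors to 232 ± 14.6 and 242 ± 20.8 TPM. EGFR held 78.1 ± 0.866% of receptor TPM in DOX-negative and 83.6 ± 1.13% in DOX-positive cells. ERBB2 held 15.6 ± 0.779% and 11.4 ± 1.12%. The ratio of EGFR to ERBB2 rose from between 4.82 and 5.38 to between 6.77 and 8.41. These shares add up to a fixed total within each library, so a rise in AREG lowers the share of TGFA and BTC even where their own level does not pass the test.

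**Figure D3:**
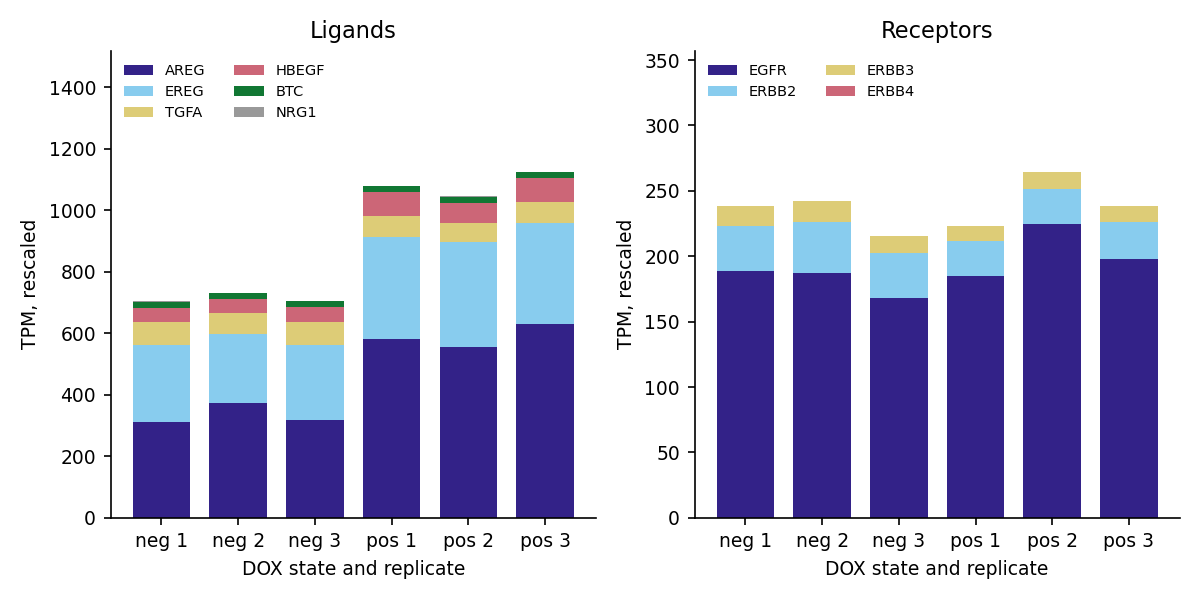
Stacked TPM, rescaled without 5 short noncoding RNAs, of the 6 ligands (left) and the 4 receptors (right) in each DOX-negative (neg) and DOX-positive (pos) library. The ligand stack averages 713 TPM in DOX-negative and 1083 TPM in DOX-positive cells, and the receptor stack averages 232 and 242 TPM.

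AREG and EREG are neighbours on chromosome 4, and both were examined with the genes around them. EREG starts 80.0 kb before AREG, and BTC ends 349 kb after the AREG start. Of the 24 RefSeq genes within 500 kb of the AREG start, 12 were in the count table and 7 were tested. AREG, EREG and CXCL2, a chemokine that was singled out after its value was seen, were called higher, beside 13.0% of all genes tested. The window was set around AREG, so AREG and EREG are no independent part of this count. CXCL2 had 295, 272 and 303 counts in DOX-negative and 884, 690 and 577 counts in DOX-positive libraries (log2 fold change 1.33, SE 0.097, adjusted p = 1.35e-09, edgeR). MTHFD2L, which lies between CXCL2 and EREG, had a log2 fold change of 0.080 (adjusted p = 0.558, edgeR), and BTC had 0.0070. EPGN, the ligand gene before EREG, had 4, 0, 1, 1, 0 and 0 counts and was not tested.

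**Figure D4:**
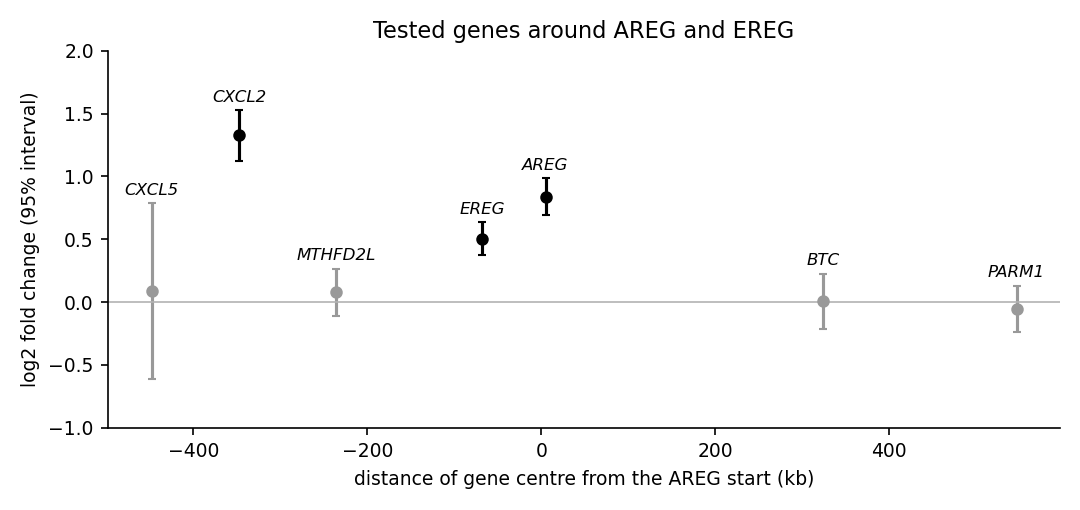
Log2 fold change with 95% interval of the 7 tested genes around AREG against the distance of the gene's centre from the AREG start in kb. Black points passed an adjusted p under 0.05. CXCL2 (1.33), EREG (0.51) and AREG (0.84) lie above 0, and CXCL5, MTHFD2L, BTC and PARM1 lie near it.

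Of the 5 other ligands of the family, 3 were tested and 1 was called (33.3%, beside 26.7% over all genes tested). EGF, the founding ligand, fell from 6.34 ± 0.673 to 2.33 ± 0.331 CPM (log2 fold change -1.44, SE 0.20, adjusted p = 1.36e-05, edgeR) and was called in all 16 alternatives. NRG2 measured 5.76 ± 0.606 and 7.24 ± 0.394 CPM (0.33, adjusted p = 0.132), and NRG4 5.20 ± 1.20 and 6.26 ± 0.743 CPM (0.27, adjusted p = 0.312). NRG3 had 0 counts in every library.

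The ligand precursors are cut by ADAM proteases, and the iRhom proteins carry the sheddase ADAM17 through its maturation. In the list of 15 genes for shedding and trafficking, 13 were tested, 1 rose and 2 fell, with a median log2 fold change of 0.069. The share called was 23.1%, below the 26.7% over all genes tested. ADAM12, a protease that can cut HBEGF, rose from 11.2 to 24.1 CPM (1.10, adjusted p = 5.68e-07, edgeR). RHBDF1 (iRhom1) fell (-0.55, adjusted p = 0.00315), as did ADAM10 (-0.19, adjusted p = 0.0333). The call of ADAM10 was lost without DOX-negative replicate 1 or 3 or DOX-positive replicate 1 or 3. ADAM17, the main sheddase of AREG and HBEGF, was named after its value was seen and did not pass the test (-0.12, adjusted p = 0.224).

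Among 28 adaptors and effectors downstream of the receptors, 6 rose and 3 fell, a share of 32.1% beside 26.7% over all genes tested, and the median log2 fold change was 0.036. The largest changes were PLCG1 (phospholipase C gamma 1, -0.63), GAB2 (an adaptor for PI3K, 0.54), SRC (-0.49) and BRAF (0.32). Of 20 genes listed as negative regulators, 3 rose and 4 fell (35.0%, beside the same 26.7%). The list also holds CDC37, USP8 and PTK6, which do not act only as negative regulators, and none of these was called. ERRFI1 (MIG6), an inhibitor that binds the EGFR kinase, rose from 650 to 869 CPM (0.42, adjusted p = 1.80e-05, edgeR). LRIG1, which promotes receptor degradation, fell from 12.8 to 9.11 CPM (-0.50, adjusted p = 0.00649), and the receptor phosphatase PTPRJ (-0.54) and SOCS4 (-0.44) also fell.

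The list of 15 transcripts known to be induced by ERK signalling had the highest share called, with 11 higher and 1 lower (80.0%, beside 26.7% over all genes tested), and a median log2 fold change of 0.44. The list was written with earlier results of these data known, so this share is no independent count. DUSP5, a nuclear ERK phosphatase, rose from 170 ± 2.13 to 356 ± 25.9 CPM (1.07, adjusted p = 8.93e-11, edgeR). SPRY1 (0.86), IER3 (0.82) and FOSL1 (0.60, a subunit of AP-1) followed. SPRY2, a feedback inhibitor, fell (-0.47, adjusted p = 4.95e-04, edgeR) and was named after its value was seen. Several of these genes also respond to other pathways, and ERK activity itself was not measured in these files. The paper reports that silencing with DOX lowered phosphorylated ERK and AKT on immunoblots of the same cell model. The rises in this list are of transcripts, and whether they reflect ERK activity was not tested. Why most of these transcripts rose while phosphorylated ERK was reported lower was not tested.

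For comparison, 38 other receptor tyrosine kinases were counted in the same fit. Of the 23 tested, 5 rose and 6 fell (47.8%, beside 26.7% over all genes tested), with a median log2 fold change of -0.075. EPHB3 fell (-1.32), DDR2 rose (1.24), EPHB4 fell (-0.58) and EPHB2 fell (-0.54). EPHB2 lost its call without DOX-negative replicate 1 or 3 or DOX-positive replicate 1 or 2.

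**Figure D5:**
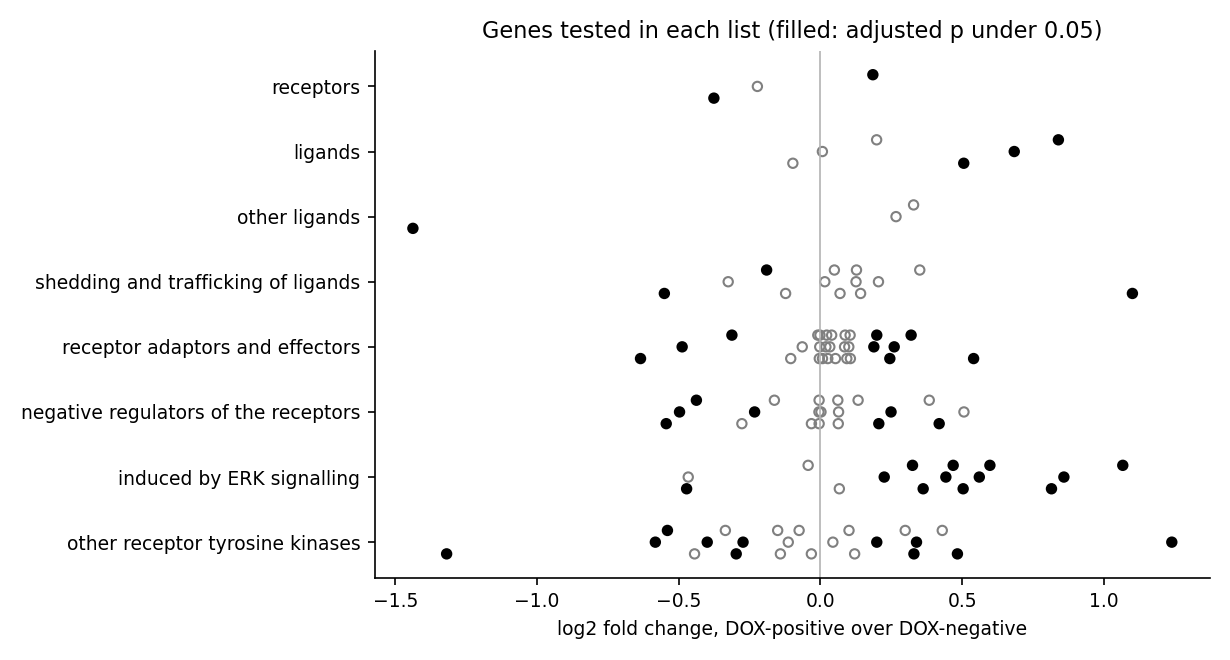
Log2 fold change of each tested gene in the receptors, the ligands and 6 lists of pathway genes. Filled points passed an adjusted p under 0.05 in edgeR (n = 3 per group), and points are offset vertically for legibility. In the ERK list 11 of 15 genes are called higher and 1 lower, and the adaptors, negative regulators and other kinases hold calls on both sides of 0.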

How the data were processed

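RNA was measured in 3 DOX-negative and 3 DOX-positive cultures, grouped and numbered by their titles, with TruSeq Stranded mRNA libraries made from triplicate cultures. The authors deposited whole-number read counts for 28008 genes and TPM values for 25546 genes. The submitters' processing notes name STAR and DESeq2 and the builds GRCh38 and hg38. Settings, annotation and strand of counting are not given in the sources used here. The table columns abbreviate the resistant line differently from the titles, and each was matched by DOX state and number. Whether the cultures were grown independently is not said, so p-values may measure technical spread.

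The count model was edgeR 4.0.16 in R 4.3.3: filterByExpr, TMM factors (0.986 to 1.03), and a two-sided glmQLFTest with group as the only term, adjusted by Benjamini-Hochberg over 14292 genes. Standard errors come from the fold change and the F statistic. Within-group pairs of libraries differed by more than sampling noise (chi-square per degree of freedom 3.65 to 19.0). The scripts were tested on simulated data. Only counting error is covered by the floor of 3 counts, since reads carried no stated molecular identifiers, while the intervals of fold changes use the spread between libraries. Deposited TPM was also rescaled without RN7SL1, RN7SL2, RN7SL3, RN7SK and RPPH1. Replicate numbers did not pair the samples (correlations of deviations -0.019, -0.095 and -0.027).

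The members and lists were chosen with earlier results of these data known. Named were MUC1, every member, every other ligand, and from each other list the 4 largest called changes. Results for some marker genes are not reported here. Alternatives were DESeq2 1.42.0, RLE factors, library totals, no filter, a minimum of 10 counts in each library, the replicate number as a block, limma 3.58.1 on log2(TPM + 1), on log2(TPM + 0.1) and on rescaled log2(TPM + 1), counts thinned to 15092691, and each library left out. Positions and promoters are from RefSeq on GRCh38.p14, and exon overlaps from GENCODE 29.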

Additional observations from a re-analysis of the deposited data

How the results depend on the processing

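The deposited TPM changed the most. It moved the median log2 fold change of all genes to -0.32 with log2(TPM + 1) and -0.39 with log2(TPM + 0.1), and the genes called fell from 3816 to 443 and 408. Of these, 6.77% and 7.11% were higher, against 48.8% of the 3816. No member was called (0 under both), and of the pathway genes 1 was called under each in place of 32. AREG, EREG, HBEGF and ERBB2 kept their direction there. Of the members and the genes named by rule, those whose log2 fold change turned sign under these settings were EGFR (-0.21 and -0.21), BTC (-0.35 and -0.38), NRG1 (-0.030 and -0.12), NRG2 (-0.050 and -0.059), NRG4 (-0.087 and -0.10) and BRAF (-0.071 and -0.072). Rescaled TPM restored 3097 calls and 4 members, all but EGFR. Short noncoding RNAs held their lowest share of TPM in DOX-negative replicate 2 (34.4%). BTC, near 0 throughout, also turned sign with library totals (-0.028), rescaled TPM (-0.014) and without a library, where it ranged from -0.046 up to 0.084.

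With the replicate block 3158 genes were called, EGFR lost its call (0.18, adjusted p = 0.0928) and so did ADAM10 (-0.19, adjusted p = 0.0751). EGFR was also not called with library totals (0.15, adjusted p = 0.108) or at least 10 counts in every library (0.18, adjusted p = 0.0518). Leaving out a library gave between 2784 and 3645 calls and 4 or 5 members. DESeq2 called 3537 genes and the same 5 members. ERBB4 did not pass the filter. From at most 5 counts a library, its log2 fold change was -1.16 in edgeR with no filter (adjusted p = 0.584) and -1.13 in DESeq2, which gave no adjusted p.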
